A study of Homo sapiens with 24 samples.

Results

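The Notch signalling genes described here are 9 members, chosen by symbol: the receptors NOTCH1, NOTCH2 and NOTCH3, the ligands JAG1 and JAG2, the nuclear proteins RBPJ and MAML1, the antagonist NUMB and the target HES1. They are 9 of the 34618 genes in the count table, and all 9 were among the 14887 genes with enough counts to be tested. JAG1 has a second, small entry in the table, and the entry with the higher counts was used. The members were chosen with earlier results of these data known, so counts of members beside shares of all genes only describe them. RNA was sequenced from HepG2, a human liver carcinoma line, in 3 lines that stably express a short hairpin RNA after lentiviral infection and puromycin selection: shCtrl carries a non-specific hairpin, shSETD2 one that targets SETD2, and shMETTL14 one that targets METTL14. SETD2 encodes the methyltransferase that places the third methyl group on lysine 36 of histone H3, and METTL14 encodes a subunit of the enzyme that writes N6-methyladenosine on RNA. Each line was collected without drug (0 h) and after 1, 3 and 6 h of actinomycin D at 5 ug/mL, an inhibitor of RNA synthesis, and every combination of line and time has 2 libraries. Each knockdown is represented by 1 line in these labels, and the sources used here do not say how the cultures of a pair were kept apart, so p-values measure the spread between libraries.

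Notch receptors are cut by a furin protease on their way to the cell surface and sit there as paired fragments. A Jagged or Delta ligand on a neighbouring cell pulls on the receptor, ADAM proteases and then gamma-secretase cut it, and the freed intracellular domain joins the DNA-binding protein RBPJ and a Mastermind protein such as MAML1 to switch on targets, of which HES1, a transcriptional repressor, is the best known. NUMB, an endocytic adaptor, opposes the receptor. In liver, JAG1 and NOTCH2 are known for their part in bile duct formation, and mutation of either can cause Alagille syndrome.

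The 24 libraries held between 18.3 and 31.4 M counts (median 24.0 M), and libraries of a pair correlated at 0.988 to 0.996. A gene's level in different libraries is stated in CPM, its count divided by the TMM-scaled size of the library, while genes are compared with each other in the deposited RPKM, which also divides by exon length. With 0 spike-in entries in the table, every value is relative to the rest of the RNA in its library, and in bulk RNA a lower level in each cell and fewer cells with the transcript cannot be told apart. At 0 h SETD2 was at 86.08 CPM in shSETD2 against 129.6 in shCtrl (66.4%), and METTL14 at 14.47 CPM in shMETTL14 against 29.66 in shCtrl (48.8%). The hepatocyte markers were present, with albumin between 4810 and 33700 CPM, while of the biliary markers KRT7 stayed at or under 0.559 CPM and CFTR at or under 0.0652. The summed level of the 7 biliary markers at 0 h was 800 to 812 CPM in shCtrl, 643 to 657 in shSETD2 and 720 to 733 in shMETTL14, and the sum of the 9 hepatocyte markers was 52000 to 52200, 100000 to 101000 and 59700 to 60000; their part in the results on Notch genes was not tested.

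The stretches before the start sites of the 4 members that were lower in both knockdown lines are shown first, because the results turn on these genes. Sequences are from RefSeq on GRCh38.p14, 250 bases up to the start of the gene, written along the gene's strand. Capitals mark the RBPJ core TGGGAA and the GC box GGGCGG on either strand (TTCCCA and CCGCCC on the other).
HES1, chr3:194135898-194136147, plus strand: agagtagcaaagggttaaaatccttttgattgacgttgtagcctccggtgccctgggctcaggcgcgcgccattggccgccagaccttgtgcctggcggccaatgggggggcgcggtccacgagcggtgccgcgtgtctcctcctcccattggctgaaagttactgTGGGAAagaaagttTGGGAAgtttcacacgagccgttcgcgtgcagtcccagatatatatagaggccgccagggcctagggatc
JAG1, chr20:10674000-10674249, minus strand: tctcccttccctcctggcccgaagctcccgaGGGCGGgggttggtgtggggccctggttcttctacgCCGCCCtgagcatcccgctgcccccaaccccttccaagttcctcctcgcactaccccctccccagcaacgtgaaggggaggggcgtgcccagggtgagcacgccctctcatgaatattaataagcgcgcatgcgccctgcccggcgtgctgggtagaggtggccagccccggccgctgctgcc
NOTCH1, chr9:136546049-136546298, minus strand: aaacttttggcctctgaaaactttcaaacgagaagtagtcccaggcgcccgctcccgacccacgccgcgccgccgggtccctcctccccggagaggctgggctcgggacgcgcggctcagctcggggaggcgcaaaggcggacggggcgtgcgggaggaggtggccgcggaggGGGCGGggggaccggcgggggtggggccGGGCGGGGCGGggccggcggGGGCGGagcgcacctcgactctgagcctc
NOTCH3, chr19:15200996-15201245, minus strand: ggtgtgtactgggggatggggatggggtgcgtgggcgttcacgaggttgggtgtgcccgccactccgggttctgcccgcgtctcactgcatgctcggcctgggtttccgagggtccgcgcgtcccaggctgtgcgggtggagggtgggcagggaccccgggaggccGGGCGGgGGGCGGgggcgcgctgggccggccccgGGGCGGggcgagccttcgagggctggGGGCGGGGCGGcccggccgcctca

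The HES1 window held 2 RBPJ cores in the same orientation, beginning 84 and 70 bases before the start, and 0 GC boxes. Of 35116 windows of the same length, 20.8% held at least 1 core and 2.9% at least 2. The JAG1, NOTCH1 and NOTCH3 windows held 0 RBPJ cores and 2, 4 and 5 GC boxes, where 24.3% of all windows held at least 2 boxes. Members that were not lower in both lines held boxes too: MAML1 and NUMB 4 each, JAG2 2, NOTCH2 1, and the RBPJ windows 0 to 2. The JAG1, NOTCH1 and NOTCH3 windows are also richer in G and C (68.4%, 76.0% and 78.0%) than the HES1 window (59.2%). All 9 members had at least 1 window, 13 in all; 1 of the 5 RBPJ windows also held 2 cores. A match is a string of letters in the window and shows no binding.

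In untreated control cells JAG1 was by far the higher of the Jagged ligands and NOTCH2 the highest of the receptors. JAG1 stood at 65.4 RPKM, followed by HES1 at 16.9, RBPJ at 9.51, NUMB at 8.09, MAML1 at 6.55 and NOTCH2 at 4.94 RPKM. NOTCH1 (0.813 RPKM) and NOTCH3 (0.379) were well below NOTCH2, and JAG2 was near the limit of detection at 0.0393 RPKM, with 5 and 7 counts. The paired libraries of neighbours in this order did not overlap. The order changed in places in the knockdown lines: MAML1 (7.37 ± 0.142 RPKM, SD, n = 2) stood above NUMB (6.60 ± 0.0714) in shSETD2, NUMB and RBPJ overlapped in shMETTL14, and NOTCH3 fell to the level of JAG2 in both.

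**Figure D1:**
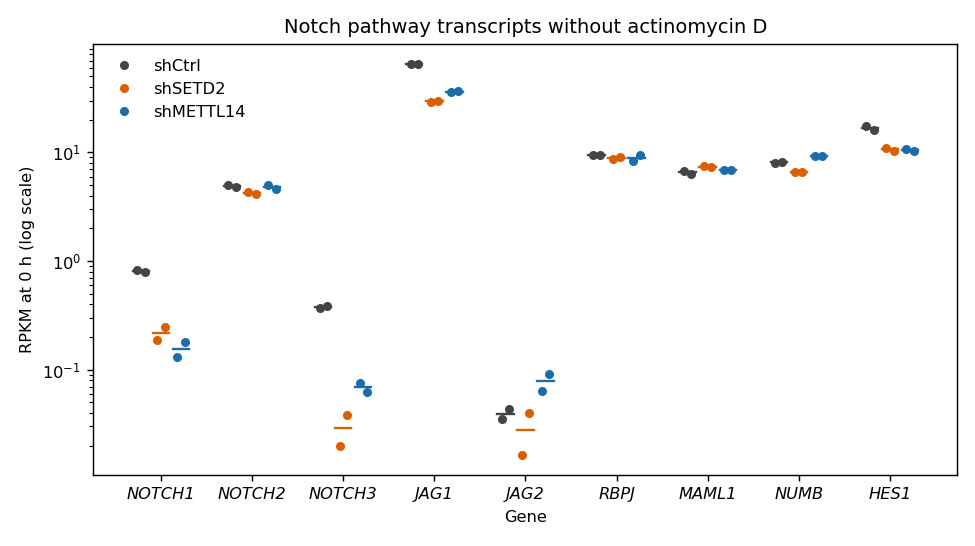
Deposited RPKM of the 9 genes without actinomycin D, on a log scale; points are single libraries and the short lines their means (2 per line). JAG1 is the highest in every line at 65.4, 29.7 and 36.1 RPKM. NOTCH1, NOTCH3, JAG1, HES1 and RBPJ have both libraries of each knockdown line below both control libraries. For RBPJ the gap is small, with 9.525 and 9.501 RPKM in shCtrl against 8.614 and 9.023 in shSETD2 and 8.336 and 9.442 in shMETTL14.

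JAG1, HES1, NOTCH1 and NOTCH3 were lower in both knockdown lines at 0 h, while NOTCH2, RBPJ and JAG2 did not pass the main test in either. In shSETD2, 6 of the 9 members passed at an adjusted p under 0.05, 1 higher and 5 lower, against 40.6% of all tested genes (21.6% higher, 18.9% lower); the median log2 change was -0.39 over the members and 0.02 over all genes. In shMETTL14, 5 passed, 1 higher and 4 lower, against 48.1% of all genes (23.1% higher, 25.1% lower), with medians of -0.15 and -0.01. Both comparisons use the same 2 control libraries, so their values are given side by side and are not independent of each other.

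JAG1 (chromosome 20, 10618332 to 10654694 on GRCh37, minus strand), the main ligand here, was at 361.5 and 357.0 CPM in the shCtrl libraries. It was at 180.1 and 183.3 CPM in shSETD2 and at 189.6 and 192.5 in shMETTL14. The 4 knockdown libraries thus lay close together, far below the control pair. In edgeR's quasi-likelihood test the level was 1.98-fold lower in shSETD2 (log2 -0.98, SE 0.0526, adjusted p = 6.35e-13) and 1.88-fold lower in shMETTL14 (log2 -0.91, SE 0.0524, adjusted p = 2.8e-12). The difference between the knockdown lines was log2 0.07 (95% interval -0.036 to 0.182; adjusted p = 0.258), but 0.284 (adjusted p = 0.000108) with library totals alone, where the median over all genes was 0.181 in place of -0.03.

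NOTCH1 (chromosome 9, 139388896 to 139440314, minus strand), a receptor at low level in these cells, had 182 to 198 counts in the control libraries, 53 to 57 in shSETD2 and 35 to 42 in shMETTL14. Its CPM was 7.19 and 6.83 in shCtrl, 1.80 and 2.35 in shSETD2 and 1.09 and 1.48 in shMETTL14. Here too the control libraries stood apart, and the knockdown pairs did not overlap each other. The level was 3.41-fold lower in shSETD2 (log2 -1.77, SE 0.164, edgeR adjusted p = 8.41e-09) and 5.47-fold lower in shMETTL14 (log2 -2.45, SE 0.176, edgeR adjusted p = 1.07e-10). Between the knockdown lines it was lower in shMETTL14 by log2 -0.68 (adjusted p = 0.013), a call lost without the second shSETD2 library (log2 -0.49, adjusted p = 0.146) or the first shMETTL14 library (log2 -0.47, adjusted p = 0.16).

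NOTCH3 (chromosome 19, 15270444 to 15311792, minus strand), the receptor best known from smooth muscle and pericytes, was at 2.85 and 2.97 CPM in shCtrl. It was at 0.170 and 0.330 CPM in shSETD2, from 5 and 8 counts, and at 0.562 and 0.459 in shMETTL14, from 13 to 18 counts. The 3 pairs did not overlap, although the shSETD2 pair rests on few reads. The test gave 11.8-fold lower in shSETD2 (log2 -3.56, SE 0.292, edgeR adjusted p = 9.93e-10) and 5.62-fold lower in shMETTL14 (log2 -2.49, SE 0.239, edgeR adjusted p = 1.18e-08). Between the knockdown lines the value was log2 1.07 (adjusted p = 0.0365), which did not pass without the first shSETD2 library (0.63, adjusted p = 0.358) or the first shMETTL14 library (0.90, adjusted p = 0.187).

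NOTCH2 (chromosome 1, 120454176 to 120612240, minus strand), the main receptor of these cells by RPKM, was at 74.3 and 70.5 CPM in shCtrl, 70.2 and 68.1 in shSETD2, and 70.6 and 65.3 in shMETTL14. The shSETD2 pair lay just below the control pair, and the shMETTL14 pair overlapped both. The difference from shCtrl was log2 -0.06 in shSETD2 (95% interval -0.182 to 0.053; adjusted p = 0.391) and -0.09 in shMETTL14 (-0.207 to 0.027; adjusted p = 0.199). These values rest on the scaling: in shSETD2 NOTCH2 was lower with library totals alone (-0.221, adjusted p = 0.00262) and in both RPKM fits. In shMETTL14 it was lower with RLE scaling (-0.144, adjusted p = 0.0357) and with DESeq2. NOTCH2 was also lower without the second shCtrl library (-0.192 in shSETD2 and -0.222 in shMETTL14) or the first shMETTL14 library (-0.244 in shMETTL14). Such fits are scaled anew, and in shMETTL14 JAG1 moved as well, from -0.91 to between -1.02 and -0.997. The part of a single library was therefore not tested. The paralog NOTCH2NL, which shares sequence with NOTCH2, had 27 to 94 counts against 674 to 2262 for NOTCH2, and reads could be split between them.

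JAG2 (chromosome 14, 105607318 to 105635161, minus strand), the other Jagged ligand, had 0 to 16 counts in any library. At 0 h its intervals were wide, from -1.837 to 1.061 in shSETD2 and from -0.249 to 2.033 in shMETTL14 on the log2 scale, and a difference was not detectable at this depth.

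HES1 (chromosome 3, 193853934 to 193856521, plus strand), the target gene, was at 31.6 and 29.1 CPM in shCtrl, 22.1 and 20.7 in shSETD2 and 18.5 and 17.8 in shMETTL14. The control pair lay above both knockdown pairs, which themselves did not overlap. It was 1.42-fold lower in shSETD2 (log2 -0.50, SE 0.0984, edgeR adjusted p = 0.000254) and 1.67-fold lower in shMETTL14 (log2 -0.74, SE 0.0988, edgeR adjusted p = 1.74e-06). The difference between the knockdown lines, log2 -0.24, did not pass (95% interval -0.448 to -0.027; adjusted p = 0.0544).

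The nuclear partners and NUMB moved little. RBPJ (chromosome 4, 26165077 to 26436541, plus strand) differed by log2 0.05 in shSETD2 (95% interval -0.155 to 0.248) and -0.15 in shMETTL14 (-0.355 to 0.048). Without the second shMETTL14 library, in a fit that is also scaled anew, the shMETTL14 value was -0.339. That was the 1 of 12 alternatives in which RBPJ passed as lower in shMETTL14. MAML1 (chromosome 5, 179159851 to 179223512, plus strand) was at 63.3 and 58.8 CPM in shCtrl and 77.8 and 75.5 in shSETD2, which is 1.26-fold higher (log2 0.33, adjusted p = 0.000857), and it was at 61.9 and 61.7 in shMETTL14. That rise is sensitive to the scaling: it was 0.17 (adjusted p = 0.0573) with library totals alone, and 0.19 (adjusted p = 0.12) without the second shCtrl library. NUMB (chromosome 14, 73741815 to 73930348, minus strand) was at 74.9 and 76.9 CPM in shCtrl, 68.6 and 69.4 in shSETD2 and 84.6 and 83.9 in shMETTL14, with log2 differences of -0.14 (adjusted p = 0.0232) and 0.15 (adjusted p = 0.0107). The first of these did not pass with no filter (-0.141, adjusted p = 0.163), nor without the first (-0.129) or the second shSETD2 library (-0.146). The second did not pass under 7 of 12 alternatives. With all libraries kept, these were RLE scaling (0.0965, adjusted p = 0.0967), DESeq2 (0.0962, adjusted p = 0.115) and no filter (0.146, adjusted p = 0.122). It dropped to between 0.034 and 0.0759, without passing, in fits without 1 of its 4 libraries. Those fits are scaled anew, and JAG1 dropped in them as well, from -0.91 to between -1.02 and -0.997. The drop is thus not particular to NUMB. The distance between the knockdown lines held in each of the 4 such fits: NUMB was 1.22-fold higher in shMETTL14 than in shSETD2 (log2 0.29, adjusted p = 2.02e-05). In that comparison 4 members passed, 2 higher (NUMB, NOTCH3) and 2 lower (NOTCH1, MAML1), against 52.2% of all genes (23% higher, 29.2% lower). With library totals alone MAML1 (-0.0987, adjusted p = 0.262) and NOTCH1 (-0.471, adjusted p = 0.0785) did not pass, and both RPKM fits lost them too. NOTCH3 did not pass with DESeq2 (1.08, adjusted p = 0.0762).

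**Figure D2:**
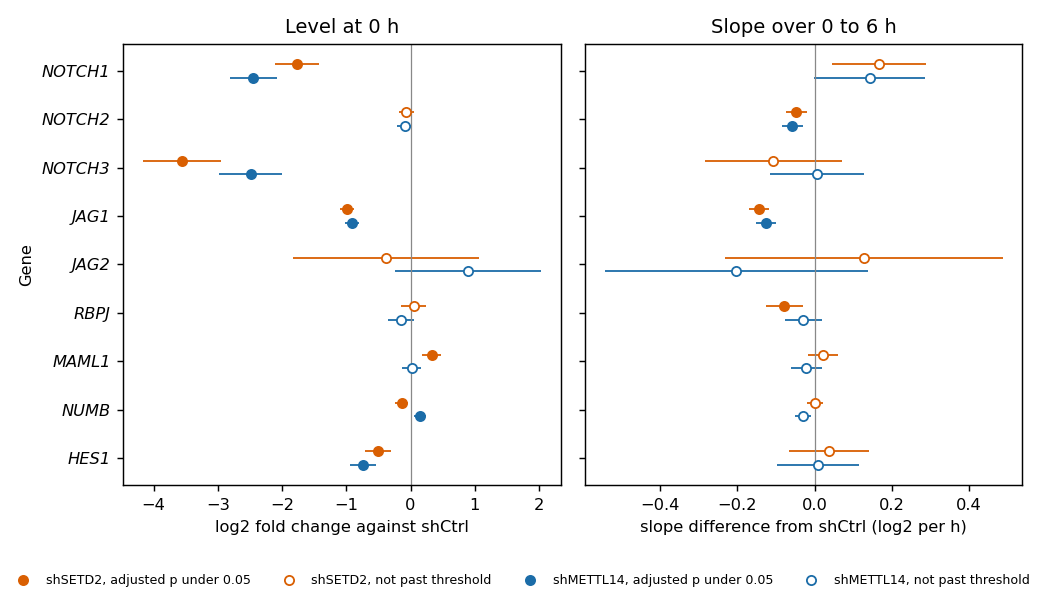
Left, log2 fold change of each knockdown line against shCtrl at 0 h; right, slope over 0 to 6 h of actinomycin D minus the shCtrl slope, in log2 per h. Bars are 95% intervals from the edgeR fit and filled points passed an adjusted p of 0.05; the 4 genes to the far left at 0 h are NOTCH3, NOTCH1, JAG1 and HES1, and on the right JAG1 has the intervals farthest below 0 (-0.170 to -0.119 and -0.151 to -0.1).

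Once transcription was blocked, most of the HES1 RNA was lost within the first hour in all 3 lines. Its level went from 31.6 and 29.1 CPM at 0 h to 7.59 and 7.41 at 1 h in shCtrl, from 22.1 and 20.7 to 4.36 and 4.93 in shSETD2, and from 18.5 and 17.8 to 4.37 and 3.00 in shMETTL14. That left 24.7%, 21.7% and 20.3% of the 0 h level. The first-hour changes were log2 -2.02 (edgeR adjusted p = 3.81e-12) in shCtrl, -2.21 in shSETD2 and -2.30 in shMETTL14, and only 0.826%, 0.296% and 0.423% of all tested genes had lower values. At 3 h HES1 was at 5.14%, 8% and 5.99% of its start, and at 6 h at 6.79%, 6.94% and 6.40%. A straight line over 6 h therefore describes HES1 poorly, and its slope differences from shCtrl, 0.037 log2 per h in shSETD2 (95% interval -0.065 to 0.140) and 0.009 in shMETTL14 (-0.098 to 0.116), rest on 17 to 39 counts at 6 h.

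The first hour took less from the other members. In shCtrl 5 of 9 passed, all lower, against 29.7% of all genes (15.9% lower): HES1, JAG1 (log2 -0.37), MAML1 (-0.30), RBPJ (-0.29) and NUMB (-0.15). NOTCH1, at log2 -0.348, did not pass in the main edgeR fit (adjusted p = 0.0583) but did under 5 of 12 alternatives. In shSETD2 3 passed (HES1, JAG1 at -0.51 and RBPJ at -0.33; background 28.8%), and in shMETTL14 the same 3 (JAG1 at -0.36 and RBPJ at -0.27; background 39.1%). The RBPJ and NUMB calls in shCtrl were not kept in all fits without 1 library. RBPJ did not pass when any 1 of the 4 libraries was left out, although its values, from -0.32 to -0.261, stayed near that of the main fit. NUMB did not pass without the second 0 h library (-0.148) or either 1 h library (-0.133 and -0.167). Such fits have fewer libraries and are scaled anew, so the part of a single library was not tested. MAML1 did not pass without the first 1 h library (log2 -0.25, adjusted p = 0.0603). RBPJ was lost in shSETD2 without the second 0 h or the first 1 h library (adjusted p = 0.0942 and 0.151) and in shMETTL14 without the second 0 h or the first 1 h library (0.207 and 0.291). Between lines, 0 members differed from shCtrl in the first-hour change by edgeR, where 0.047% of all genes did for shSETD2 (0.0202% higher, 0.0269% lower) and 0.107% for shMETTL14 (0.0537% in each direction, higher and lower). At an unadjusted p under 0.05 there was 1 member in each (NOTCH3 and MAML1), and DESeq2 and both limma fits also called 0.

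Over the whole 6 h, the least-squares slope of log2 level on hours passed in 8 members in shCtrl (6 falling and, relative to other RNA, NOTCH3 and NUMB, so 2, rising), against 71.1% of all genes (37.8% rising, 33.2% falling). In shSETD2 7 passed (1 rising, 6 falling; background 70.4%, 34.2% rising and 36.2% falling) and in shMETTL14 7 (1 rising, 6 falling; background 73.1%, 38.2% rising and 34.8% falling). The 6 that fell in each line were NOTCH1, NOTCH2, JAG1, RBPJ, MAML1 and HES1. After HES1 the steepest slope in shCtrl was that of NOTCH1 (-0.337 log2 per h), followed by MAML1 (-0.283), JAG1 (-0.184), RBPJ (-0.107) and NOTCH2 (-0.069). The NOTCH3 slope relative to other RNA was 0.119 log2 per h in shCtrl and 0.126 in shMETTL14, both past the main test. In shMETTL14 the call was lost under 10 of 17 alternatives, among them library totals alone (0.0552, adjusted p = 0.379), DESeq2 (0.130, adjusted p = 0.065) and fits without the second 0 h (0.115), second 1 h (0.118) or first 6 h library (0.0742); in shCtrl it was lost under 1 of 17, the limma fit of log2(RPKM + 0.1) (0.049, adjusted p = 0.0678). NUMB kept close to its start, with 106%, 110% and 97.4% left at 6 h; its slopes of 0.024 in shCtrl and 0.025 in shSETD2 passed with the scaling used but turned to -0.0345 and -0.0242 with library totals alone, so no direction is given for it.

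**Figure D3:**
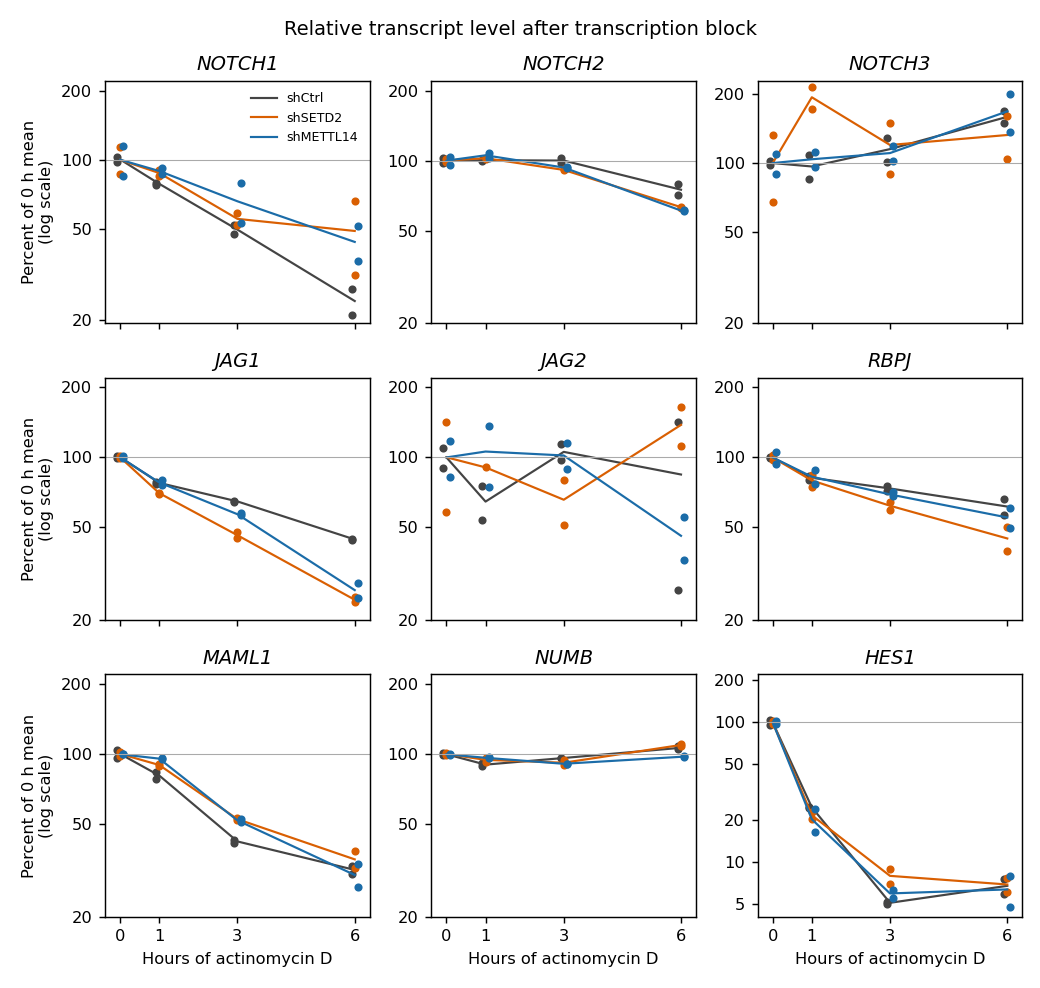
Level after 0, 1, 3 and 6 h of actinomycin D as percent of the line's own 0 h mean, on log scales (the HES1 panel reaches lower than the others); points are libraries, lines join means of 2, and a JAG2 library with 0 counts is not drawn. At 6 h JAG1 is at 44.4% in shCtrl against 24.5% and 26.9% in the knockdown lines, while HES1 is at 6.40% to 6.94% in all 3 lines.

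JAG1 was the member whose loss differed most clearly between lines. In shCtrl its level went from 361.5 and 357.0 CPM at 0 h to 276.1 and 281.9 at 1 h, 231.2 and 233.5 at 3 h, and 160.7 and 158.6 at 6 h. In shSETD2 it went from 180.1 and 183.3 to 128.3 and 126.9, then 86.5 and 81.7, and 43.3 and 45.6. In shMETTL14 it went from 189.6 and 192.5 to 145.4 and 152.9, then 110.1 and 107.7, and 55.4 and 47.3. The control pair kept 44.4% at 6 h and the knockdown pairs 24.5% and 26.9%, with no overlap, so that a gap of about the same fold in both knockdown lines at 0 h had widened by 6 h to 27.9% and 32.2% of the shCtrl level. The slopes were -0.184, -0.329 and -0.309 log2 per h. The difference from shCtrl was -0.145 in shSETD2 (SE 0.0123, edgeR adjusted p = 1.16e-07) and -0.125 in shMETTL14 (SE 0.0121, edgeR adjusted p = 4.46e-07). Only 4.2% and 4.37% of all genes had lower differences, and every alternative fit run for these kept the direction and the call (adjusted p up to 5.24e-05 and 6.08e-05).

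In shSETD2 3 members passed for a slope difference, all lower, against 7.94% of all genes (1.49% higher, 6.45% lower), and in shMETTL14 2, both lower, against 5.21% (1.85% higher, 3.35% lower). Besides JAG1 these were NOTCH2 in both lines and RBPJ in shSETD2. NOTCH2 ended at 57.3 and 51.3 CPM at 6 h in shCtrl, 43.5 and 43.9 in shSETD2, and 41.7 and 41.2 in shMETTL14, or 75.1%, 63.2% and 61.1% of the start. Its slope difference was -0.047 in shSETD2 (95% interval -0.074 to -0.020; adjusted p = 0.0305) and -0.058 in shMETTL14 (-0.085 to -0.030; adjusted p = 0.00946). RBPJ ended at 42.4 and 49.9 CPM in shCtrl and 30.8 and 38.7 in shSETD2, with a slope difference of -0.079 (-0.127 to -0.031; adjusted p = 0.0375); in shMETTL14 it was -0.029 (-0.077 to 0.018).

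These smaller differences were not stable across fits. A fit without a library is also scaled anew, so the part of a single library was not tested. JAG1 ranged in such fits from -0.151 to -0.112 in shSETD2 and from -0.146 to -0.101 in shMETTL14. Without the second shCtrl 0 h library the NOTCH2 value was -0.0103 in shSETD2 and -0.0302 in shMETTL14. Without the first it was -0.019 and -0.0389, although these libraries were close at 74.3 and 70.5 CPM. Without the first shCtrl 6 h library NOTCH2 was at -0.0331 and -0.0436, and none of these values passed. In shMETTL14 NOTCH2 also did not pass without the first (-0.0275) or second (-0.0411) shMETTL14 0 h library. Its call in shMETTL14 held under every alternative that used all libraries. In shSETD2 the NOTCH2 call was further lost without the first shCtrl 1 h library or without 1 of 4 shSETD2 libraries: both at 0 h, the second at 1 h and the first at 6 h (adjusted p from 0.0501 to 0.083). RBPJ did not pass in 10 of 16 such fits, each of the shCtrl libraries at 0 h and 1 h, the second at 6 h, and the shSETD2 libraries at 0 h, the second at 1 h, the first at 3 h and the first at 6 h, with values from -0.0468 to -0.083 and adjusted p from 0.0504 to 0.292. The calls of NOTCH2 and RBPJ in shSETD2 were also lost when slopes came from other scalings.

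NOTCH1 went the other way without passing the main test. It kept 24.2% of its start at 6 h in shCtrl (1.92 and 1.48 CPM), 48.9% in shSETD2 (1.38 and 0.652) and 43.8% in shMETTL14 (0.661 and 0.467). The knockdown pairs at 6 h rest on 8 to 24 counts. Its slope difference was 0.166 log2 per h in shSETD2 (95% interval 0.045 to 0.288; adjusted p = 0.0859) and 0.142 in shMETTL14 (-0.001 to 0.285; adjusted p = 0.302), with 97.6% and 97.0% of all genes lower. In shSETD2 it passed without the second 6 h library (0.234, adjusted p = 0.00739) but was 0.0557 (adjusted p = 0.795) without the first. In both lines it passed in the limma fits of RPKM, at 0.174 and 0.180 with a pseudocount of 0.1 (adjusted p = 0.0114 and 0.00558). These fits cannot decide the question, because NOTCH1 was at only 0.0864 and 0.0501 RPKM at 6 h in shSETD2 and shMETTL14. An added 0.1 or 1 flattens slopes at such levels, and more so than in shCtrl, where NOTCH1 started at 0.813 RPKM. The fall of NOTCH1 within shSETD2 (-0.171 log2 per h) did not pass without the second 6 h library (-0.103, adjusted p = 0.0629). MAML1 ended at 31.8%, 35.3% and 30.2% of the start, with slope differences that did not pass of 0.022 (-0.016 to 0.061) and -0.022 (-0.061 to 0.018).

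A half-life per gene and line stands in the authors' deposited table, which per the series' design text comes from the same time points relative to untreated cells. It lists 7772 genes, among them 6 of the members; NOTCH3, JAG2 and NUMB have no value used here. In the authors' deposited table the half-life of HES1 was 1.5 h in shCtrl, 1.43 in shSETD2 and 1.42 in shMETTL14, and only 1.21% of listed genes were shorter in shCtrl. The values for JAG1 in the authors' deposited table were 3.92, 2.17 and 2.25 h. NOTCH2 went from 6.93 to 4.06 and 3.91 h, and RBPJ from 5.83 to 3.10 and 3.84 h, in the authors' deposited table. MAML1 was at 2.80, 2.58 and 2.26 h, and NOTCH1 at 2.38, 3.39 and 2.92 h, in the authors' deposited table.

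Of these 6 members, 5 were listed with a shorter half-life in each knockdown line than in shCtrl, but so were 88.2% (shSETD2) and 88.8% (shMETTL14) of all genes in the authors' deposited table, whose medians were 6.02, 4.13 and 4.31 h. A shorter value was thus as common in the whole table as among the members. JAG1, NOTCH2 and RBPJ stood below the median ratios to shCtrl of 0.702 and 0.717 over all genes, and HES1 and MAML1 above them. The JAG1 ratio was 0.555 and 0.574 in the authors' deposited table, with 30.9% and 29.1% of genes lower still. In the authors' deposited table the NOTCH2 ratio was 0.586 and 0.564 (34.1% and 28.0% of genes lower). That of RBPJ was 0.532 and 0.659 (28.4% and 40.6% lower) in the authors' deposited table. NOTCH1 was the exception, listed longer, with ratios of 1.42 and 1.23, above those of 96.6% and 94.9% of genes in the authors' deposited table. The fits made here centre each library on its own RNA, and the median slope difference over all genes was -0.013 and -0.003 log2 per h. How the half-lives were scaled between libraries is not stated in the sources used here, and its part in their general shortening was not tested.

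**Figure D4:**
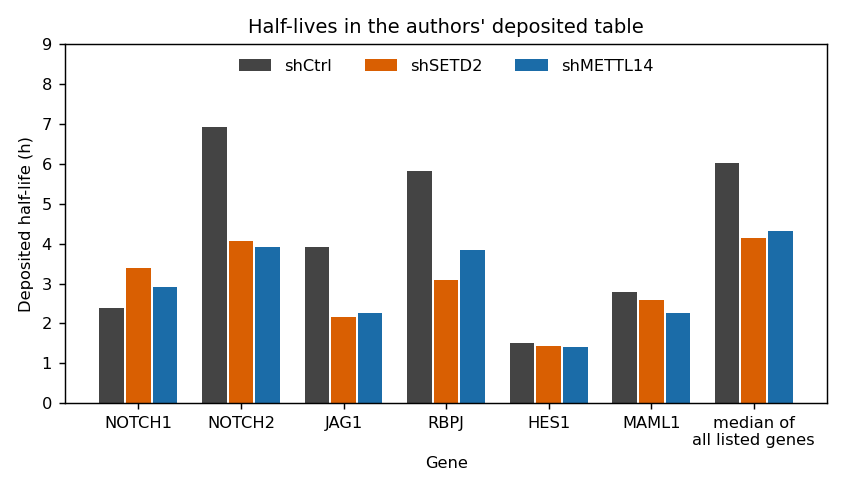
Half-lives in hours from the authors' deposited table for the 6 listed members and the median over all 7772 listed genes, with 1 bar per line and no replicate values. JAG1, NOTCH2 and RBPJ drop in both knockdown lines as the median does (6.02 to 4.13 and 4.31 h), HES1 stays near 1.4 to 1.5 h, and NOTCH1 is listed at 2.38, 3.39 and 2.92 h.

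Around the 9 members, 59 further pathway genes were in the table and 52 could be tested; DLL1, NEURL1, DTX1, HES5, HES7, HEY2 and HEYL had at most 5 counts in a library. At 0 h 6 were higher and 20 lower in shSETD2 (median log2 -0.17), against 21.6% and 18.9% of all tested genes, and 11 higher and 11 lower in shMETTL14 (median -0.08), against 23.1% and 25.1%. The lists below are small, so their counts describe them and are to be read against these shares. Among the other HES, HEY and feedback genes, 5 of 9 were tested. NRARP, a Notch-induced feedback inhibitor, was lower in shSETD2 (log2 -1.08, adjusted p = 5.95e-05) and in shMETTL14 (-0.73, adjusted p = 0.00134), at 4.40, 2.03 and 2.66 CPM. HES4 was also lower in both (-0.62 and -0.78). HES6, which is known to oppose HES1, was higher in shSETD2 (0.88, adjusted p = 3.16e-07) at 31.1 against 16.9 CPM, and was at 14.8 CPM in shMETTL14. HES2 was lower in shSETD2 (-1.35) and higher in shMETTL14 (0.73).

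Of the other ligands and receptors, 5 were tested: DLK1, a non-canonical ligand, was higher in shSETD2 (log2 0.81, 218 against 124 CPM), DLL3 was lower there (-0.96), and DLL4, a Delta ligand, was higher in shMETTL14 (2.66, adjusted p = 2.08e-05) at 1.54 against 0.239 CPM. Between the knockdown lines themselves, 3 of 6 gamma-secretase subunits and 3 of 8 glycosylation and cleavage genes were higher in shMETTL14, and 0 and 2 lower, where 23% of all genes were higher and 29.2% lower. Against shCtrl, the gamma-secretase subunits were 0 higher and 4 lower of 6 in shSETD2 (APH1B -0.91, PSEN2 -0.42, PSENEN -0.40, NCSTN -0.17) and 2 higher and 0 lower in shMETTL14 (APH1B 0.53, NCSTN 0.17). LFNG, a fringe glycosyltransferase that changes which ligands a receptor answers to, was at 2.5 CPM in shCtrl, 1.31 in shSETD2 (log2 -0.93) and 8.14 in shMETTL14 (1.71), and the difference between the knockdown lines was 2.64 (adjusted p = 4.42e-11). Of 8 glycosylation and cleavage genes, 0 were higher and 3 lower in shSETD2 and 3 were higher and 1 lower in shMETTL14, where FURIN (0.59) was higher and ADAM17 (-0.34) lower.

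Among 7 co-activators, of which 3 passed in shSETD2 and 4 in shMETTL14, the histone acetyltransferases KAT2B (log2 -1.59), KAT2A (-0.32) and EP300 (-0.26) were lower in shSETD2, and in shMETTL14 MAML3 (2.07) and MAML2 (0.85), the relatives of MAML1, were higher and EP300 (-0.28) and CREBBP (-0.19) lower. Of 10 co-repressors, TLE1, a Groucho protein that works with HES factors, was lower in both lines (-0.62 and -0.65, adjusted p = 4.67e-07 and 1.84e-07); in all, 2 were higher and 2 lower in shSETD2 and 0 higher and 5 lower in shMETTL14, shares near the 40.6% and 48.1% of all genes called. Of 11 endocytosis and ubiquitin ligase genes, 2 were higher and 4 lower in shSETD2 (DTX4 0.63, AAK1 -0.66) and 2 higher and 1 lower in shMETTL14 (NUMBL 2.45, NEURL1B 1.17, AAK1 -0.36).

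For slope differences, 6 of the 52 pathway genes fell faster or rose less in shSETD2 and 0 the reverse; in shMETTL14 the numbers were 6 and 1. Of all tested genes, 6.45% had a lower and 1.49% a higher slope than shCtrl in shSETD2, and 3.35% and 1.85% in shMETTL14. SPEN, the RBPJ co-repressor, was among them in both lines (-0.063 and -0.073 log2 per h; adjusted p = 0.00222 and 0.000459), as were CIR1, another RBPJ co-repressor (-0.088 and -0.103), and FBXW7, the ubiquitin ligase subunit that marks the Notch intracellular domain for destruction (-0.092 and -0.071). EP300 was in shMETTL14 (-0.095, adjusted p = 2.71e-05). ADAM10 (-0.067) and ADAM17 (-0.055) were among them in shSETD2, and DTX4 (-0.1) and MAML2 (-0.11) in shMETTL14, with KAT2B (0.121) the 1 in the other direction. NRARP and HES4, the feedback genes lower at 0 h in both lines, had slope differences that did not pass (0.061 and 0.006 for NRARP, adjusted p = 0.604 and 0.982; 0.060 and -0.032 for HES4, adjusted p = 0.317 and 0.747), as with HES1 itself.

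The genes whose log2 CPM followed a member most closely over the 24 libraries, of 9989 genes with a mean of at least 5 CPM, were listed as a description. The points share their libraries and hours of drug. For JAG1 they were HIF1A (Pearson r 0.962), TAF5L and SEMA6A (both 0.956). For NOTCH1 they were PDGFA (0.946), AKNA (0.945) and PLIN2 (0.931), and for HES1 ZFY, FBXO30 (both 0.984) and ELMSAN1 (0.982).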

How the data were processed

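The authors deposited 1 table with raw count values and RPKM values per gene and library, and a second with a half-life (in hours, unit and fit as deposited) per gene and line. The build GRCh37 and the tools HTSeq 0.6.1p1, TopHat and cutadapt are named per the submitters' processing notes. The sources used here do not say whether counting used strand, so reads of antisense partners cannot be told apart: RP11-103J8.1 over JAG1 had 1 to 8 counts and RP1-240K6.3 over NUMB 1 to 49. The deposited RPKM equals counts over exon length and column total, checked on the values. The labels state that ERCC spike-ins were added; the table holds 0 ERCC entries. Columns were matched to samples by title, with 0 left over.

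Counts were tested with edgeR 4.0.16 (R 4.3.3; TMM, filterByExpr over 12 groups, glmQLFit robust, glmQLFTest, two-sided, Benjamini-Hochberg over 14887 genes at 0.05; 12 residual degrees of freedom, biological coefficient of variation 5.04%), with 1 model over 24 libraries and 13 contrasts. CPM and percentages of the 0 h mean were computed here; percentages use group means. Adjusted p-values come from this fit unless another is named. On simulated counts of these libraries, 99.0% of 200 genes changed 2-fold in shSETD2 at 0 h were recovered, and 91.0% of those changed 1.5-fold. No decay was simulated. The same 0 h change makes a slope difference of 0.121 or 0.0708 log2 per h, and 88.5% and 44.0% of these were recovered. Small slope differences can thus be missed. The changed genes were drawn from better-counted ones at 1 fixed spread, so genes at few counts such as NOTCH3 and JAG2 are not covered.

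Alternatives were RLE scaling, library totals alone, no filter, at least 5 CPM in 2 libraries, a replicate block, limma 3.58.1 on log2(RPKM + 0.1) and log2(RPKM + 1), DESeq2 1.42.0, slopes over 1, 3 and 6 h or 6 h against 0 h, and leaving out each library. Fits without a library were scaled anew, so their values mix the missing library with a change of scaling. The members and gene lists were chosen with earlier results of these data known. Named are all members, up to 4 called genes of a list in order of p, and the 3 genes most like NOTCH1, JAG1 and HES1; NRARP and HES4 were named for slope after their values at 0 h were seen. Promoters are RefSeq windows; protein sequences were not used here.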

Additional observations from a re-analysis of the deposited data

Results flagged for a closer look

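The change under actinomycin D differed between a knockdown line and shCtrl for 3 members by edgeR's test of the difference in slope. JAG1 differed by -0.145 log2 per h in shSETD2 (adjusted p = 1.16e-07) and by -0.125 in shMETTL14 (adjusted p = 4.46e-07). NOTCH2 differed by -0.047 in shSETD2 (adjusted p = 0.0305) and by -0.058 in shMETTL14 (adjusted p = 0.00946), and RBPJ by -0.079 in shSETD2 (adjusted p = 0.0375). With 2 libraries per group, no group was large enough to look for a library far from the others.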

How the results depend on the processing

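The 53 member results past the threshold were recomputed under 833 alternatives: 732 kept the call, 95 kept the direction without passing and 6 turned. NUMB's slope turned to -0.0345, -0.034 and -0.0303 log2 per h in shCtrl and to -0.0242, -0.0237 and -0.0207 in shSETD2 with library totals alone and the fits of log2(RPKM + 0.1) and log2(RPKM + 1). Under the same 3 settings NOTCH2 in shMETTL14 against shSETD2 at 0 h, which did not pass before, turned to 0.186, 0.181 and 0.151 and passed; library totals alone moved the median of all genes in that comparison from -0.03 to 0.181. Of 1853 alternatives for all member results, 109 changed sign with neither setting past the threshold, and 42 of results that had not passed now did. The 3 members called for a slope difference in shSETD2 became 1 (JAG1) with RLE scaling, library totals alone, DESeq2, slopes over 1, 3 and 6 h, and 6 h against 0 h; the 2 in shMETTL14 became 4 with both RPKM fits. Leaving out single libraries gave 1 to 4 and 1 to 2 members for these differences, 2 to 4 for shMETTL14 against shSETD2 and 2 to 4 for the first hour in shCtrl. NOTCH3 and JAG2, at few counts, had too little depth for a call on decay between lines.

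Replicate numbers were not treated as pairing, since same-numbered libraries correlated in their deviations above 0.1 in only 9 of 66 pairs of groups (-0.0842 to 0.202, median 0.0179). All 3 pairs of 6 h groups were among those 9 (0.109 to 0.166), and at 6 h replicate 1 was below replicate 2 for RBPJ in each line. With the replicate block 6 members passed in shSETD2 and 5 in shMETTL14 at 0 h, 6 between the knockdown lines, and 3 and 2 for the slope differences.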

Other observations

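A second JAG1 entry (ENSG00000270408; chromosome 20, 10625847 to 10627014 on GRCh37, inside JAG1 on the same strand) had 14 and 8 counts at 0 h in shCtrl and 8 and 4 in each knockdown line. After actinomycin D it had 0 counts in all 6 shCtrl libraries, 0 or 1 in shSETD2 and 0 to 3 in shMETTL14, while the main JAG1 entry still had 700 to 3101 at 6 h.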
